A study of Gallus gallus with 8 samples.

Results

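The genes described here are 6 Eph receptors (EPHA3, EPHA4, EPHA5, EPHA7, EPHB2 and EPHB3) and 4 ephrins (EFNA2, EFNA5, EFNB1 and EFNB2) of the chick. They were taken from a list of 10 symbols, and all 10 matched at least 1 transcript in the files, out of 14612 genes matched in all. The total reads, summed over all libraries, ranged from 8 for EFNA5 to 5204 for EPHB2. EFNA5 was too low to be tested, so 9 of the 10 members were among the 9062 genes that passed the filter on low counts.

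RNA sequencing of total RNA was performed on distal wing bud mesenchyme in 3 groups of libraries, named by Hamburger and Hamilton (HH) stage, all from eggs incubated at 37 °C. HH24 (3 libraries) and HH27 (3 libraries) were untreated tissue of wild type (WT) embryos, and the HH27 tissue came from the wing opposite the graft in the host embryos. HH24g (2 libraries) was mesoderm of CMV-GFP transgenic donors. It was taken from HH20 wing buds as a strip of 150 µm, stripped of its epithelium, placed beneath the apical ectodermal ridge of WT HH24 hosts and recovered 24 h later. The grafts thus had the age of HH24 tissue in a wing that had reached HH27, so a gene that stays with the donor's age resembles HH24 and a gene that takes on the host's age resembles HH27. Each library was a pool of tissue pieces. The labels do not say which embryos gave which library, so p-values measure the spread between these pools. In HH24g the act of grafting and the transgenic genotype cannot be told apart.

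Eph receptors are receptor tyrosine kinases, and their ligands, the ephrins, are themselves bound to the surface of a neighbouring cell. EphA receptors mainly bind ephrin-A ligands, which are anchored by a lipid, and EphB receptors mainly bind ephrin-B ligands, which cross the membrane and can signal back into their own cell. EphA4 is known to bind ligands of both classes. Contact between cells that carry different Ephs and ephrins commonly leads to repulsion or sorting, and in the limb bud the family is known for cell affinity along the proximo-distal axis, for shaping cartilage condensations and for guiding motor axons.

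Levels are given as CPM, which are counts divided by the size of the library after TMM scaling, the trimmed-mean method of edgeR. Differences are log2 fold changes from limma voom, with Benjamini-Hochberg adjustment over all 9062 genes. Called genes are those with an adjusted p below 0.05 and a change of more than 2-fold in either direction. Where groups are said not to overlap, this describes 2 or 3 libraries per group and is not a test. The share of all genes without overlap was not counted. The libraries held 1697272 to 5095662 estimated reads. HH24 replicate 2 stood apart, because only 9.24% of its reads matched a gene, against 45.5% to 67.6% in the others. A single read in it was worth 7.8 CPM, against 0.26 to 1.07 CPM elsewhere, and its values below 23.4 CPM (3 reads) lie under its limit of detection. Of the 6 mesenchyme markers, 2 were called between the stages, HOXD13 higher at HH27 than at HH24 (log2 2.21, limma adjusted p = 0.0221) and SALL1 lower (log2 -1.61, limma adjusted p = 0.00469). In HH24g against HH27 HOXD13 was called lower (log2 -3.15, limma adjusted p = 0.00324). The summed level of the 6 markers was 1544 to 1840 CPM in HH24, 1183 to 1391 CPM in HH27 and 1331 to 1337 CPM in HH24g. It was highest in the HH24 libraries, where SALL1 alone gave 895 to 1208 CPM. The summed erythroid markers (3 of 7 matched) were 2284 to 2839 CPM in HH24, 256 to 1320 CPM in HH27 and 437 to 837 CPM in HH24g. This sum, mostly HBA1 and HBZ, was higher in every HH24 library than in any other. HBBA had another order, with 0, 46.8 and 3.91 CPM in HH24 replicates 1 to 3. It measured 16 and 53.5 CPM in HH24g replicates 1 and 2, and 0, 3.88 and 13.8 CPM in HH27 replicates 1 to 3. The summed leukocyte markers (3 of 4 matched) were 46.7 to 47.9 CPM in HH24g and 31.1 to 38.5 CPM in the other libraries. The sum was thus highest in both grafts, but of the single genes only PTPRC was. The 6 ectoderm markers together measured 156 to 174 CPM in HH24, 173 to 200 CPM in HH27 and 142 to 177 CPM in HH24g. EPCAM and CDH1 gave most of this sum and were present in every library, also in the grafts. KRT14 and FGF8 were present in all libraries but HH24 replicate 2, where they had no read. KRT5 reached at most 1.3 CPM and TP63 at most 3.9 CPM, and both were too low to test. The part of blood cells, leukocytes and ectoderm in any result below was not tested. In bulk tissue, fewer cells of a type and less RNA per cell cannot be told apart.

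**Figure D1:**
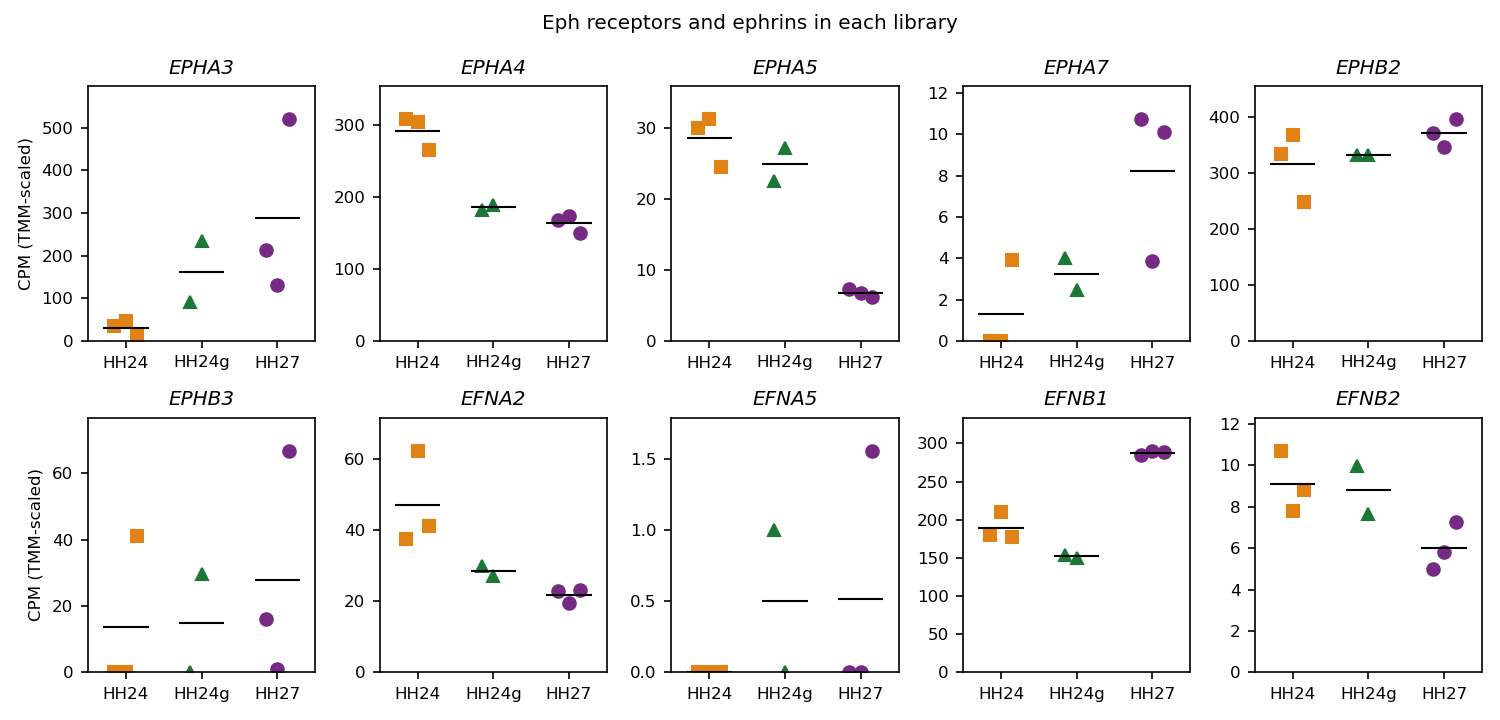
Level of each of the 10 genes in CPM (TMM-scaled, linear axis from 0) in every library: orange squares HH24 (3), green triangles HH24g (2), purple circles HH27 (3), with a black line at the group mean. EPHA5 lay at 6.23 to 7.28 CPM in HH27 and at 22.5 to 31.2 CPM in the other groups, and EFNB1 was at 284 to 290 CPM in HH27 and 150 to 210 CPM elsewhere.

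EPHA5 and EFNB1 differed between the grafts and the host stage, and in opposite directions. EPHA5 was called higher in HH24g than at HH27, by 3.71-fold, and it was the 1 member called of 9 tested (11.1%). Over all genes, 155 of 9062 were called in that comparison (1.71%). EFNB1 was 1.89-fold lower in HH24g, which lies under the 2-fold limit, so it passed on its adjusted p alone. By adjusted p alone 2 of 9 members passed, against 3.18% of all genes. Between the stages, HH27 against HH24, EPHA5 was again the 1 member called, now lower, where 1.07% of all genes were called. By adjusted p alone 4 members passed (EPHA4, EPHA5, EFNA2 and EFNB1), against 1.78% of all genes. EFNA2 lay at the threshold, and none of the 4 passed without HH24 replicate 1. Between HH24g and HH24 no member was called, and 1 gene of 9062 was (0.011%, by either rule). At an unadjusted p under 0.05 there were 3 of 9 members in that comparison, against 11.3% of all genes. The members' median log2 fold changes were -0.18 in HH24g against HH27, -0.12 in HH24g against HH24 and 0.35 in HH27 against HH24, and those of all genes tested were -0.01, 0.02 and 0.03. The comparisons share libraries with each other, so their counts are not independent. The members were chosen with earlier results of these data known, so a share above that of all genes is not independent evidence.

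**Figure D2:**
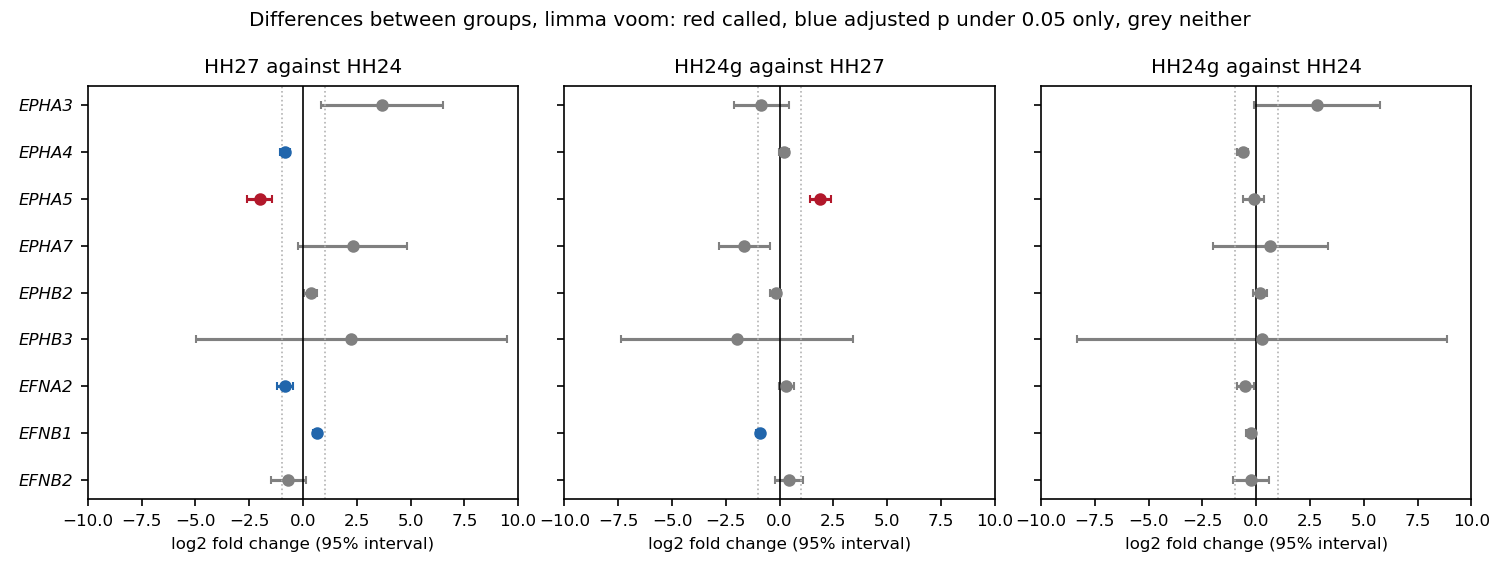
log2 fold change with its 95% interval (limma voom) for the 9 tested members in the 3 comparisons. Red marks called genes, blue genes with an adjusted p under 0.05 but within the 2-fold limit (dotted lines), and grey the rest. EPHA5 is red at -2.02 in HH27 against HH24 and at 1.89 in HH24g against HH27, and the interval of EPHB3 spans zero widely in all panels.

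Among the EphA receptors, EPHA5, which in the nervous system is known as a guidance receptor for growing axons, was the member with the clearest difference. Its levels were 30, 31.2 and 24.5 CPM in HH24 replicates 1 to 3, 22.5 and 27.2 CPM in HH24g replicates 1 and 2, and 7.28, 6.8 and 6.23 CPM in HH27 replicates 1 to 3. The 3 HH27 libraries were the lowest of the 8 and overlapped with neither other group, while the HH24 and HH24g ranges overlapped. These levels rest on 241 reads in all, 4 of them in HH24 replicate 2 and 7 in HH27 replicate 2. Between HH24 and HH27 EPHA5 fell by 2.02 on the log2 scale (SE 0.26, 95% interval -2.60 to -1.43, limma adjusted p = 0.00836). Without HH24 replicate 1 the adjusted p of that fall was 0.071 at a log2 fold change of -1.90, and without HH24 replicate 2 it was 0.0232 at -2.01. EPHA5 was higher in HH24g than at HH27 by 1.89 (SE 0.22, 1.39 to 2.40, limma adjusted p = 0.00314), and it was called in all 19 alternative fits that tested it. HH24g and HH24 differed by -0.12 (SE 0.21, -0.60 to 0.35, limma adjusted p = 0.861). This interval allows a difference of up to 0.60 in size.

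EPHA4, a receptor known to be widespread in limb mesenchyme and to steer motor axons into the dorsal limb, had a different order. Its levels were 308, 304 and 265 CPM in HH24 replicates 1 to 3, 182 and 189 CPM in HH24g replicates 1 and 2, and 168, 174 and 150 CPM in HH27 replicates 1 to 3. Both grafts lay below every HH24 library and above every HH27 library. Between HH24 and HH27 EPHA4 fell by 0.84 on the log2 scale (SE 0.10, -1.07 to -0.60, limma adjusted p = 0.00692). Without HH24 replicate 1 the limma adjusted p was 0.0677, and without HH24 replicate 2 it was 0.019. HH24g was lower than HH24 by a log2 difference of -0.63 (SE 0.11, -0.88 to -0.38), with an unadjusted p of 0.000304 and a limma adjusted p of 0.0919, which misses the threshold. Under DESeq2 that adjusted p was 0.000277, but it was under 0.05 in only 2 of the 20 alternative fits. The quasi-likelihood test of edgeR was among those that missed. HH24g and HH27 differed by 0.21 (SE 0.10, -0.02 to 0.43, limma adjusted p = 0.333).

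EPHA3, a close relative of EPHA5 that binds ephrin-A ligands, had the widest range among the members with many reads. Its levels were 34.2, 46.8 and 12.7 CPM in HH24 replicates 1 to 3, 90.3 and 234 CPM in HH24g replicates 1 and 2, and 212, 132 and 520 CPM in HH27 replicates 1 to 3. All HH24 libraries lay below every other library, while HH24g and HH27 overlapped. The spread within HH27, from 132 to 520 CPM, was larger than the gap between HH24 and the nearest graft. EPHA3 was 12.8-fold higher in HH27 than in HH24 (log2 3.68, SE 1.24, 0.85 to 6.51), but its limma adjusted p was 0.21. DESeq2 called it, with an adjusted p of 0.00129 at a log2 fold change of 3.29, and edgeR's quasi-likelihood test did not, with an adjusted p of 0.0728. Without HH27 replicate 3 the log2 fold change was 3.05, with a limma adjusted p of 0.14. HH24g against HH24 gave 2.83 (SE 1.28, -0.08 to 5.74, limma adjusted p = 0.453), and HH24g against HH27 gave -0.85 (SE 0.56, -2.13 to 0.42, limma adjusted p = 0.495). In HH27 and in HH24g the highest EPHA3 level was in the library with the most reads. The part of depth was not tested.

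EPHA7, a receptor known from limb bud mesenchyme in mouse and chick, was near the limit of detection. It had 0 reads in HH24 replicates 1 and 2 and 4 in HH24 replicate 3, 28, 4 and 39 in HH27 replicates 1 to 3, and 8 in each HH24g library. In CPM these were 0, 0 and 3.91, then 10.7, 3.88 and 10.1, then 3.99 and 2.44. HH27 held the 2 highest values of all, and the groups overlapped in each comparison. No contrast passed, with limma adjusted p of 0.367 for HH27 against HH24, 0.147 for HH24g against HH27 and 0.872 for HH24g against HH24. Since 1 of the 7 transcripts that the gene table lists for EPHA7 is in the files, reads found only in the others could not be counted. The same limit holds for EPHA4 (1 of 5 listed transcripts), EPHA3 (2 of 4) and EPHA5 (6 of 10). Only 46.4% of the transcripts in the files matched a gene. Reads of any member on unmatched transcripts were therefore not counted either, and their number is not known.

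Of the EphB receptors, EPHB2, a main receptor for ephrin-B ligands, held the most reads and moved little. Its levels were 334, 366 and 247 CPM in HH24 replicates 1 to 3, 331 CPM in both HH24g libraries, and 370, 347 and 395 CPM in HH27 replicates 1 to 3. The stages overlapped, and both grafts lay just under the lowest HH27 library. HH27 against HH24 gave 0.35 (SE 0.13, 0.06 to 0.64, limma adjusted p = 0.238), HH24g against HH27 gave -0.18 (SE 0.11, -0.43 to 0.07, limma adjusted p = 0.468) and HH24g against HH24 gave 0.17 (SE 0.14, -0.14 to 0.48, limma adjusted p = 0.672). The first interval allows at most a rise of 0.64 on the log2 scale, so a doubling between the stages lies outside it. EPHB3, another ephrin-B receptor, was erratic within every group. Its counts were 0, 0 and 42 reads in HH24 replicates 1 to 3, 42, 1 and 257 reads in HH27 replicates 1 to 3, and 0 and 97 reads in HH24g replicates 1 and 2. Each group held a library at 0 or 1 read beside one with 42 reads or more, and the sign of its contrasts changed with the library left out. Only 1 of its 5 listed transcripts is in the files, and no direction was read from it.

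EFNB1, which encodes ephrin-B1, a ligand known in humans as the gene of craniofrontonasal syndrome, was the ephrin with the clearest difference. Its levels were 180, 210 and 177 CPM in HH24 replicates 1 to 3, 154 and 150 CPM in HH24g replicates 1 and 2, and 284, 290 and 289 CPM in HH27 replicates 1 to 3. The groups did not overlap in any comparison. HH27 was highest, and both grafts lay below even the lowest HH24 library. EFNB1 rose from HH24 to HH27 by 0.67 (SE 0.08, 0.48 to 0.85, limma adjusted p = 0.00759), which is 1.59-fold. The adjusted p of this rise was 0.0743 without HH24 replicate 1, 0.0157 without HH24 replicate 2 and 0.0951 without HH24 replicate 3. EFNB1 was lower in HH24g than in HH27 by a log2 difference of -0.92 (SE 0.07, -1.09 to -0.75, limma adjusted p = 0.00138), and it ranked 3 of 9062 genes by p. Its adjusted p stayed under 0.05 in all 20 alternative fits, in which the log2 fold change was -0.93 to -0.90. HH24g against HH24 gave -0.25 (SE 0.09, -0.46 to -0.04, limma adjusted p = 0.352).

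EFNA2, which encodes ephrin-A2, a ligand known in chick limb buds for position-specific cell affinity, had the same order of groups as EPHA4. Its levels were 37.4, 62.4 and 41.1 CPM in HH24 replicates 1 to 3, 29.9 and 27.2 CPM in HH24g replicates 1 and 2, and 23, 19.4 and 23.1 CPM in HH27 replicates 1 to 3. The 3 groups did not overlap, with HH24 highest and HH27 lowest. The highest value, in HH24 replicate 2, rests on 8 reads. Between HH24 and HH27 EFNA2 fell by 0.84 (SE 0.17, -1.22 to -0.45), with a limma adjusted p of 0.0494 that lies at the threshold. The adjusted p was 0.109 without HH24 replicate 2 and between 0.069 and 0.26 in the 8 fits that left out 1 library each. HH24g against HH24 gave -0.52 (SE 0.17, -0.91 to -0.12, limma adjusted p = 0.299), and HH24g against HH27 gave 0.32 (SE 0.15, -0.02 to 0.67, limma adjusted p = 0.323).

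EFNB2, which encodes ephrin-B2, best known as a marker of arterial endothelium, was low in every library. Its levels were 10.7, 7.8 and 8.8 CPM in HH24 replicates 1 to 3, 9.98 and 7.64 CPM in HH24g replicates 1 and 2, and 4.98, 5.83 and 7.27 CPM in HH27 replicates 1 to 3. HH27 lay below both other groups without overlap, from 112 reads in all. The lowest HH24 value, 7.8 CPM in HH24 replicate 2, is 1 read and lies under the limit of detection of that library. No contrast passed, with a limma adjusted p of 0.41 for HH27 against HH24 (log2 -0.68, SE 0.36) and 0.485 for HH24g against HH27 (log2 0.44, SE 0.28). The 7 endothelial markers together measured 131 to 210 CPM in HH24, 153 to 179 CPM in HH27 and 219 to 232 CPM in HH24g. The sum was highest in both grafts, but of the single markers only CLDN5 was. EFNB2 was not highest there, and the part of the endothelium was not tested. EFNA5, which encodes ephrin-A5, had 6 reads in HH27 replicate 3, 2 in HH24g replicate 1 and 0 in the other 6 libraries, through 1 of its 4 listed transcripts. A count of 0 allows up to 3 reads, which in the libraries at 0 is 0.917 to 3.21 CPM outside HH24 replicate 2 and 23.4 CPM within it. These limits cover counting error only.

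Whether HH24g lay nearer to one stage than to the other was measured as its distance from the midpoint of HH24 and HH27, for the 4 members that passed by adjusted p between the stages. This contrast was chosen after the values were seen, and 0.673% of all genes passed in it by adjusted p alone. In both grafts EFNB1 was under every HH24 library (HH24g against HH24 log2 -0.25, limma adjusted p = 0.352). By these estimates part of its distance from the midpoint lay beyond HH24. EFNB1 lay below the midpoint, on the HH24 side, by a log2 distance of -0.59 (SE 0.07, -0.75 to -0.42, limma adjusted p = 0.0123). Its adjusted p was 0.0701 without HH24 replicate 1, 0.0728 without HH24g replicate 1 and 0.137 without HH24g replicate 2. EPHA5 lay above the midpoint, also on the HH24 side, by 0.88 (SE 0.17, 0.49 to 1.28), with a limma adjusted p of 0.0631 that misses the threshold. EPHA4 lay below its midpoint, on the HH27 side, by -0.21 (-0.42 to -0.01, limma adjusted p = 0.354), and EFNA2 by -0.10 (-0.41 to 0.22, limma adjusted p = 0.816). For EPHA4 and EFNA2 neither side was shown.

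**Figure D3:**
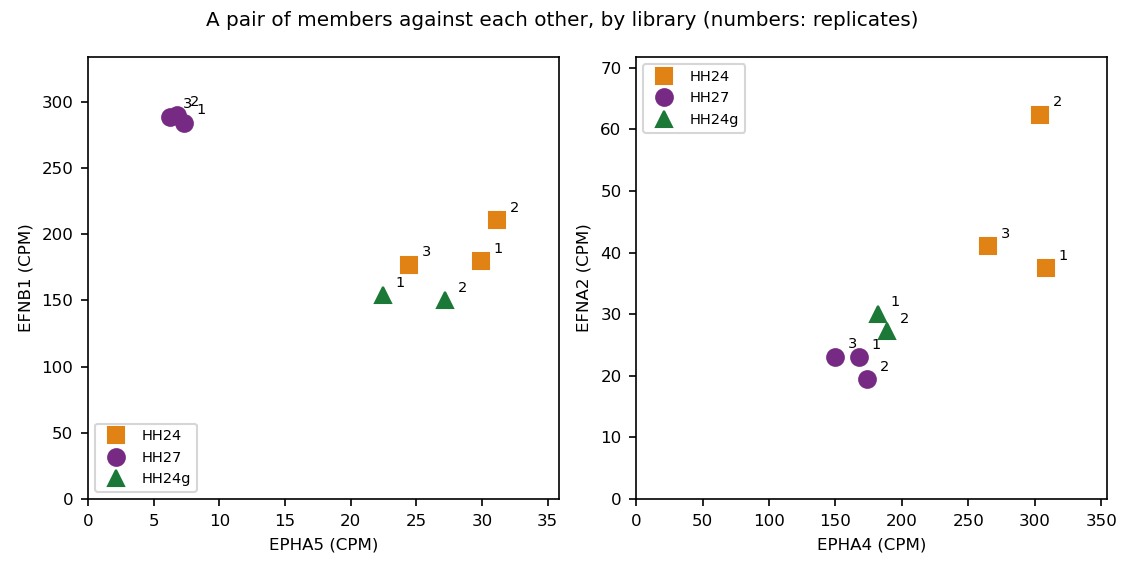
Level in CPM (linear axes from 0) of EFNB1 against EPHA5 on the left and of EFNA2 against EPHA4 on the right, in each of the 8 libraries, with the replicate number beside each point. On the left both grafts (green) lie nearer to HH24 (orange) than to HH27, at 22.5 and 27.2 CPM of EPHA5 and 154 and 150 CPM of EFNB1. In EFNB1 they lie below every HH24 library. On the right they lie between the stages in both genes, at 182 and 189 CPM of EPHA4 and 29.9 and 27.2 CPM of EFNA2.

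Levels can be compared between genes only per length, so TPM, a share of transcripts corrected for length, was rescaled to the same sum over the matched genes alone. These values are used for the order of genes within a group, not between groups. In HH24 the highest means were EFNA2 at 71.9, EPHA4 at 71.6 and EFNB1 at 68.8 TPM, whose ranges overlapped (49.7 to 92.5, 36.3 to 89.8 and 37.8 to 87.4). EPHB2 followed at 31.1 TPM (18.9 to 44.8), which overlapped with EFNB1. EFNB2 (9.47) lay below all values of EPHB2, and EPHA5 (5.33), EPHA3 (4.06), EPHB3 (3.99) and EPHA7 (0.405) each overlapped with the gene before it. EFNA5 was at 0. HH24 replicate 2 gave the lowest value of the leading 6 genes.

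In HH27, EFNB1 led at 186 TPM (172 to 195), above every value of the other members. EPHA3 at 77.7 TPM (35.2 to 144), EPHA4 at 72.1 (67.3 to 78.9), EPHB2 at 71.8 (69.1 to 75.8) and EFNA2 at 64.4 (58.9 to 69.8) overlapped with their neighbours. EPHB3 (10.9), EFNB2 (10.8), EPHA7 (3.33), EPHA5 (1.99) and EFNA5 (1.2) were lower. By group mean EPHA3 stood in position 7 of 10 in HH24 and in position 2 in HH27. The latter rests on HH27 replicate 3, since EPHA3 was in position 5 in HH27 replicates 1 and 2. EPHA5 was in position 6 or 7 in the HH24 libraries and in positions 9, 7 and 10 in HH27 replicates 1 to 3. In HH24g, EFNB1 led at 98.7 TPM (91.9 to 105), above EFNA2 at 84.8 (79.2 to 90.3) and EPHA4 at 81.8 (81.6 to 82), which overlapped. EPHB2 at 61.3 TPM (57.2 to 65.5) and EPHA3 at 43.2 (26.1 to 60.4) came next and overlapped with each other. EFNB2 stood at 15.8 TPM, EPHA5 at 8.13, EPHB3 at 5.6, EPHA7 at 1.33 and EFNA5 at 1.01.

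**Figure D4:**
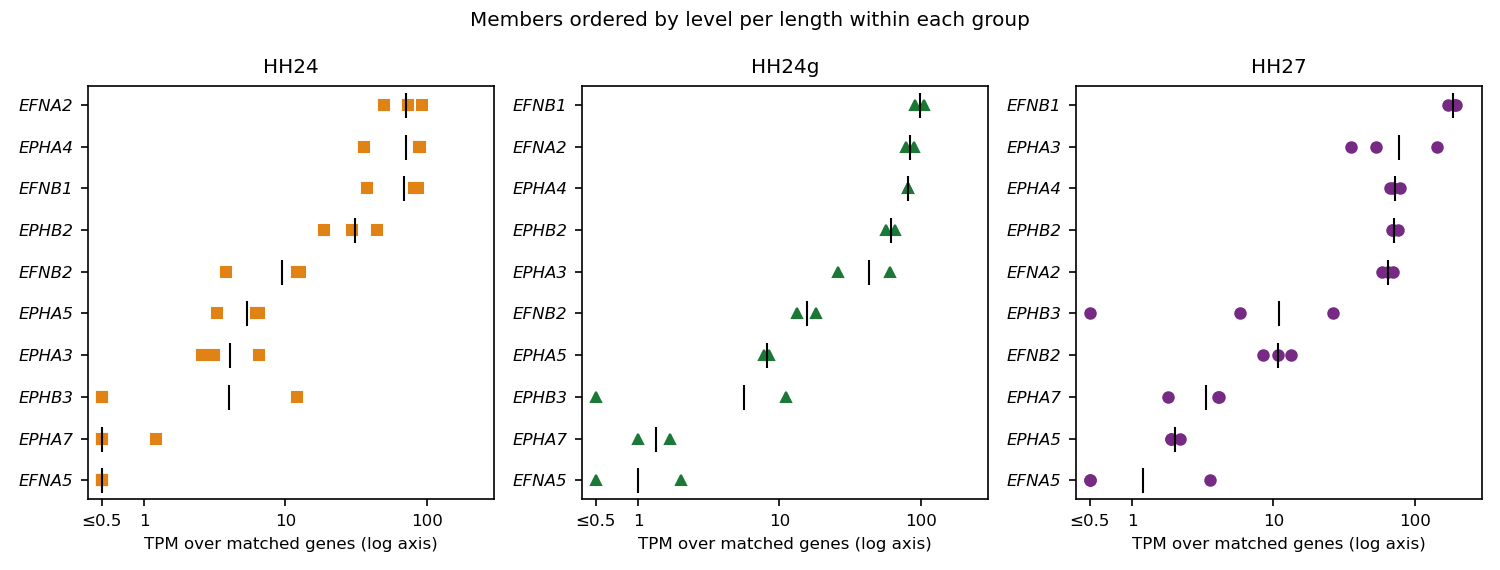
TPM over matched genes (log axis, values at or below 0.5 drawn at the left edge) of the 10 members in HH24, HH24g and HH27, ordered by the group mean (black tick), with 1 point per library. EFNB1 leads in HH27 at 172 to 195 TPM. By group mean EPHA3 is in position 7 in HH24 and in position 2 in HH27, the latter through HH27 replicate 3. Values are not compared between panels.

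Estimated reads were also split by transcript for members with several transcripts in the files. For EPHA3 the transcript of 6862 nt held 77.6% to 92.8% of the reads in all libraries, and that of 3240 nt held the rest. By these estimates the higher EPHA3 level in HH27 and HH24g lay in both transcripts, though for the gene it passed limma in neither comparison with HH24. The transcript of 3240 nt held only 7.17, 0.434 and 1.89 estimated reads in HH24 replicates 1 to 3. For EFNB1 the transcripts of 3432 and 1938 nt shared the reads almost evenly, at 40.3% to 58.8% and 41.2% to 55.6%, and another of 3612 nt held 6.21% in HH24g replicate 1 alone. For EPHA5 the transcript of 4125 nt held 36.5% to 100% of the reads. For EPHB2 the transcript of 3749 nt held 11.1% to 25.8%, and 3 transcripts of 12197 to 12248 nt took the remainder in shares that changed from library to library. The one of 12248 nt held 88.8% in HH24 replicate 3 and 0.0073% in HH24g replicate 1. Reads were shared out among similar transcripts, so these splits are estimates, and no difference between groups was tested on them. The summed reads behind CPM do not depend on the split among a gene's matched transcripts. Reads shared out to transcripts that matched no gene are missing from them. The TPM sums behind the order per length do depend on the split, since transcripts of unlike length are weighted differently.

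**Figure D5:**
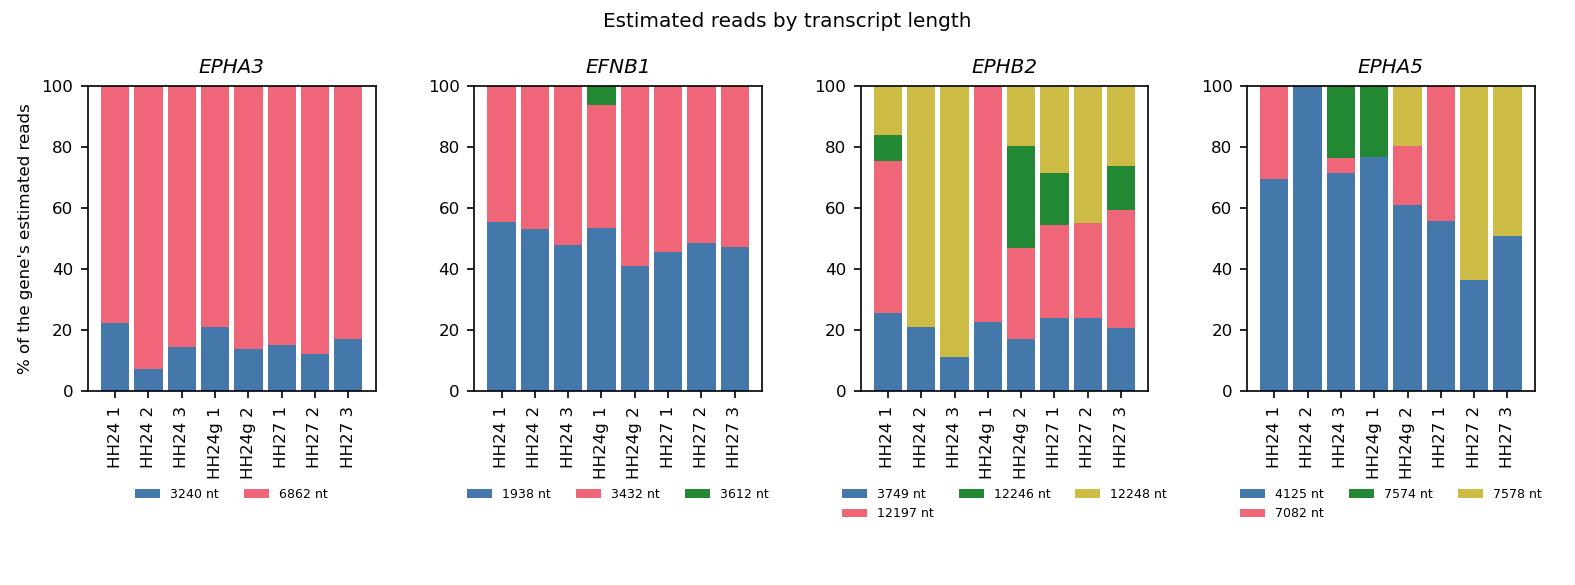
Share of each gene's estimated reads (%) by transcript, named by its length in nucleotides (nt), for EPHA3, EFNB1, EPHB2 and EPHA5 in each library. Transcripts with under 1% in every library are left out. The 6862 nt transcript of EPHA3 holds 77.6% to 92.8% everywhere, while the 3 long transcripts of EPHB2 trade places between libraries of 1 group.

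Of the other Eph receptors and ephrins, 6 of 13 matched a transcript, and 3 were tested. EPHA1 measured 7.8 to 18.2 CPM and EPHA2 18.5 to 39 CPM. EPHB6, a receptor whose kinase is known to be inactive, measured 8.8 to 46.8 CPM. None of the 3 was called in any comparison, and their limma adjusted p were 0.47 to 0.978. EPHA6 (31 reads in all) and EPHA10 (10 reads) were too low to test, and EPHA8 had no read. The remaining 7 (EPHB1, EPHB4, EFNA1, EFNA3, EFNA4, EFNA6 and EFNB3) were not analysed here.

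Beyond the receptors and ligands, 41 of 53 genes of the signalling pathway were tested, among them GTPase regulators, adaptors, kinases, phosphatases and the proteases that cleave ephrins. In HH24g against HH27, 1 of 41 was called (2.44%, against the 1.71% of all genes), with a median log2 fold change of -0.08, and 14 (34.1%) had an unadjusted p under 0.05, against 17.2% of all genes. In HH24g against HH24 and in HH27 against HH24 none of the 41 was called by limma, with medians of 0.07 and 0.01, while 5 (12.2%) and 7 (17.1%) had an unadjusted p under 0.05, against 11.3% and 15.3% of all genes. The gene called was CHN1, which encodes alpha-chimaerin, a Rac inhibitor known in mouse to act downstream of EphA4 in motor circuits. Its levels were 85.6, 109 and 91.9 CPM in HH24 replicates 1 to 3, 54.4 and 67.8 CPM in HH24g replicates 1 and 2, and 122, 151 and 132 CPM in HH27 replicates 1 to 3. As for EFNB1, HH27 was highest and both grafts lay below every HH24 library. CHN1 was lower in HH24g than at HH27 by a log2 difference of -1.10 (SE 0.13, -1.40 to -0.79, limma adjusted p = 0.00363), and it was not called without HH24g replicate 1. HH24g against HH24 gave -0.55 (limma adjusted p = 0.26) and HH27 against HH24 gave 0.55 (limma adjusted p = 0.118).

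The genes whose log2 CPM was most like that of EPHA5 over the 7 libraries without HH24 replicate 2 were MIPOL1 (Pearson's r 0.984), SYTL4 (0.983) and CRTAC1 (0.978), among 7660 genes. Over all 8 libraries SYTL4 stayed among the leading 3. For the other members, added after the values were seen, the gene most like EPHA3 was SKP1 (0.985), that most like EPHA4 was TAF1B (0.991), that most like EFNA2 was WWC1 (0.988) and that most like EFNB1 was SORCS3 (0.993). Each list of 3 was different. The 7 libraries fall into 3 groups, so these values mostly describe a like order of the groups.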

How the data were processed

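For each library the authors deposited a table of 57399 RefSeq transcripts with an estimated count for each, made by sharing reads among similar transcripts. The same deposited tables give TPM, computed by the authors from the reads and effective lengths. The submitters' processing notes name HISAT2 2.0.2, Salmon, limma and the build galGal4. The Salmon version and transcript release are not given in the sources used here. Gene names came from a RefSeq table of GRCg7b, by accession without version: 26660 transcripts (46.4%) matched 14612 genes, and unmatched reads stayed out of library sizes. Estimated counts were summed per gene and rounded. Genes were kept by filterByExpr (minimum count 10, minimum total 15) and fitted with limma voom after TMM scaling, with 1 mean per group and all 8 libraries, on the limits the study set. Confidence intervals are 95%. After quality control the study left out 1 of its HH24 and HH24g samples, which can be read as 1 of each group or 1 in all. The paper gives 3 replicate experiments per condition, and the 8 libraries analysed include 3 of HH24 and 2 of HH24g. By these numbers 1 HH24g library is not among the 8. They do not settle whether the study also left out an HH24 library. Which HH24 library that would be is not stated, so all 8 entered the fits, with leave-one-out alternatives. Depth was 1697272 to 5095662 reads per library. No 2 libraries of a group agreed within sampling noise.

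The members and lists were chosen with earlier results of these data known. Named were the 10 members, list genes called in any contrast, other Eph and ephrin genes with a count, and the 3 genes most like a called member (mean of at least 10 CPM, log2 CPM with prior count 2). The alternatives were DESeq2, its size factors in voom, the quasi-likelihood test of edgeR, other filters, no fold limit, quality weights, fewer groups, a replicate block and other feature sets. The setting with no fold limit is the main fit itself with a looser rule, and it is included in the counts of alternative fits above. The main limma voom fit was tested on simulated counts, for HH27 against HH24 only and with the same dispersion for all genes. The alternatives and the comparisons with HH24g were not tested in this way. Versions were limma 3.58.1, DESeq2 1.42.0 and edgeR 4.0.16 in R 4.3.3, and matplotlib 3.10.9 and pandas 2.3.3 in Python 3.11.15.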

Additional observations from a re-analysis of the deposited data

How the results depend on the processing

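In HH24g against HH27, 0 members were called when every library had to hold 10 counts, a filter that EPHA5 did not pass, and 2 without a fold limit. The leave-one-out count was 1 throughout. In HH27 against HH24, 2 members were called with DESeq2, 0 with 10 counts in every library and 4 without a fold limit, and leaving out 1 library gave 0 to 1, with 0 without HH24 replicate 1. Correlations of same-numbered deviations over all genes were -0.03 to 0.04. They cannot show whether HH27 and HH24g pools came from the same host embryos, since the labels do not link embryos to libraries. With the replicate block 1 member was called in HH24g against HH27 (EPHA5, 1.67), 0 in HH24g against HH24 (EPHA5, -0.37) and 1 in HH27 against HH24 (EPHA5, -2.04). Over all genes, the calls in HH24g against HH27 were 34 with 10 counts in every library, 98 with edgeR and 94 without HH24g replicate 2, against 155. In HH24g against HH24 they were 120 with DESeq2, 14 with edgeR and 20 both with 10 counts in every library and without HH27 replicate 3, and 0 to 3 in the other fits, against 1. In HH27 against HH24 they were 212 with DESeq2, 42 with 10 counts in every library, 36 with unmatched transcripts added, 63 without HH24 replicate 2, and 24 and 21 without HH24 replicates 1 and 3, against 97. Signs turned for EPHB3 in HH24g against HH27 (2.52 with the replicate block, leave-one-out -6.67 to 0.22), in HH24g against HH24 (-0.23 with edgeR, -0.21 with no filter, leave-one-out -4.37 to 2.53) and in HH27 against HH24 (leave-one-out -0.56 to 4.17). In HH24g against HH24 they also turned when 1 library was left out for EPHA7 (-0.49 to 1.22), EPHB2 (-0.05 to 0.32) and EFNB2 (-0.39 to 0.00). None of these values had passed the test, and the cause was not tested. By TPM as deposited, 6 of 10 members in HH24 kept their position in the order per length. Depth limits EPHA7, EFNA5 and, in HH24 replicate 2, EPHA5 and EFNB2. EPHB3 ranged from 0 to 257 reads between libraries, and the part of depth in that spread was not tested.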
